A study of Homo sapiens with 15 samples.

Results

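The genes described here are 3 steroid hormone receptors of breast epithelium, 4 transcription factors of the luminal lineage and 2 secreted trefoil peptides. ESR1, ESR2 and PGR code for the 2 estrogen receptors and the progesterone receptor. FOXA1, GATA3, SPDEF and XBP1 are the transcription factors, and TFF1 and TFF3 are the trefoil peptides. The genes were taken from the deposited table by symbol, and all 9 were found among its 33158 gene symbols.

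The study asked how cancer stem cells (CSCs) differ from the other cells of triple negative breast cancer, using mRNA sequencing of 3 established human cell lines. SUM149PT and HCC1937 were each sorted by the surface proteins CD44 and CD24 into a CSC fraction (CD44 present, CD24 absent or low) and a non-CSC fraction. SUM159PT was sequenced without sorting and is labelled as cancer stem cells, because nearly all of its cells carry that surface phenotype. Each of the 5 groups holds 3 libraries, and the labels name no treatment, genetic change or separate cultures for any of them.

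Breast epithelium has an inner luminal layer, part of which senses hormones, and an outer basal layer. In hormone-sensing luminal cells FOXA1 opens chromatin, GATA3 maintains luminal identity and works with the estrogen receptor, and the activated receptor in turn raises PGR, TFF1 and other targets. A tumor is called triple negative when it lacks estrogen receptor and progesterone receptor protein and does not overexpress HER2, the product of ERBB2, so mRNA levels describe this state only from one side.

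The labelled fractions were checked against the transcripts of the sorting markers. CD24 was lower in the CSC fraction of both sorted lines, with a mean of 7.74 FPKM (fragments scaled to transcript length and to all mapped fragments) against 139 in SUM149PT, and 23.3 against 150.04 in HCC1937. For CD44 the fractions lay closer, at 84.4 against 64.5 FPKM in SUM149PT and 106 against 97.8 in HCC1937, and the gene was not called in either line. EPCAM, an epithelial surface protein, was present at means of 2.49 and 55.4 FPKM in the CSC and non-CSC fractions of SUM149PT and at 17.7 and 83.6 in those of HCC1937, but at 0.0467 in SUM159PT. The keratins of simple epithelium were expressed in all 5 groups, with group means of 36.4 to 568 FPKM for KRT8 and 40.9 to 611 for KRT18. SUM159PT therefore has keratin transcripts but almost no EPCAM, and its CD24 mean was 0.729 FPKM. Its CD44 mean, at 28.8 FPKM, was the lowest of the 5 groups and as deposited was called lower than in SUM149PT CSCs (-1.55) and HCC1937 CSCs (-1.88).

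Among markers of other cell types, the leukocyte and endothelial genes named next were low. CD68, on the same list, was not low, with group means of 16.2 to 48.3 FPKM. CD3E was listed at 0 in all 15 libraries, the leukocyte markers PTPRC, CD3E and LYZ did not pass 0.0986 FPKM in any library, and the 3 endothelial markers PECAM1, VWF and CDH5 did not pass 0.742. Of 12 such markers, 4 reached a mean of 1 FPKM in SUM149PT CSCs, 3 in SUM149PT non-CSCs, 2 in each HCC1937 fraction and 4 in SUM159PT. Their summed level was 240.5 to 246 FPKM in SUM149PT CSCs, 115 to 119.8 in SUM149PT non-CSCs, 51.7 to 56.6 in HCC1937 CSCs, 47.4 to 48.3 in HCC1937 non-CSCs and 70.9 to 79.5 in SUM159PT. The most abundant was the collagen gene COL1A1 in SUM149PT, where its CSC and non-CSC means were 216 and 49.04 FPKM, and the lysosomal CD68 in the other 3 groups, at 42.3, 39.99 and 31.9. Of the 8 markers tested in SUM149PT, 2 were called higher in CSCs, COL1A1 among them, and 5 lower, among them the stromal DCN (1.8 against 16.2 FPKM), where 12.8% and 22.1% of all tested genes were, with a median log2 difference of -1.39 against -0.11 for all. Of the 5 tested in HCC1937, 1 was called lower and 0 higher by limma, where 6.0% and 2.71% of all were, with a median of 0.23 against -0.03. The lower calls of PECAM1, VWF and CDH5 in SUM149PT were lost at a pseudocount of 1 (-0.31, -0.70 and -0.69). That of PECAM1 was also lost with quantile normalization (-0.66). The 1 call in HCC1937, CDH5, was lost at a pseudocount of 1 (-0.28) and with no expression minimum (adjusted p = 0.077). The part of these markers in the results was not tested.

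The SUM159PT libraries stand apart from the other 12. Their FPKM values sum to 634746 to 652082, against 291276 to 366532 in the sorted libraries, and 8534 to 8670 genes exceeded 1 FPKM in them, against 11249 to 11997. The log2 difference between SUM159PT and SUM149PT CSCs followed the GC content of the transcripts (Spearman rho = 0.638 across 10993 genes, which are not independent replicates), and so did that against HCC1937 CSCs (rho = 0.579, 11116 genes). The line and this shift cannot be told apart. The differences of the 9 genes in SUM159PT are therefore given with other scalings too, and the comparisons among the sorted groups do not use these libraries. A value listed at 0 is also no sure absence, since 7 of 81 ribosomal protein genes are listed at 0 in at least 1 library, and the depth of sequencing is unknown.

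The 9 genes differed widely in level, from XBP1, which reached 152 FPKM, to PGR, which was above 0 in 1 library. In the CSC and non-CSC fractions of SUM149PT and in the non-CSC fraction of HCC1937, 4 of 9 genes had a mean of at least 1 FPKM, against 3 of 9 in HCC1937 CSCs and 2 of 9 in SUM159PT. The 2 genes that passed 1 FPKM in SUM159PT were GATA3 and XBP1. At the other end, 1 gene was listed at 0 in all 3 libraries of each SUM149PT fraction, 2 in each HCC1937 fraction and 3 in SUM159PT.

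**Figure D1:**
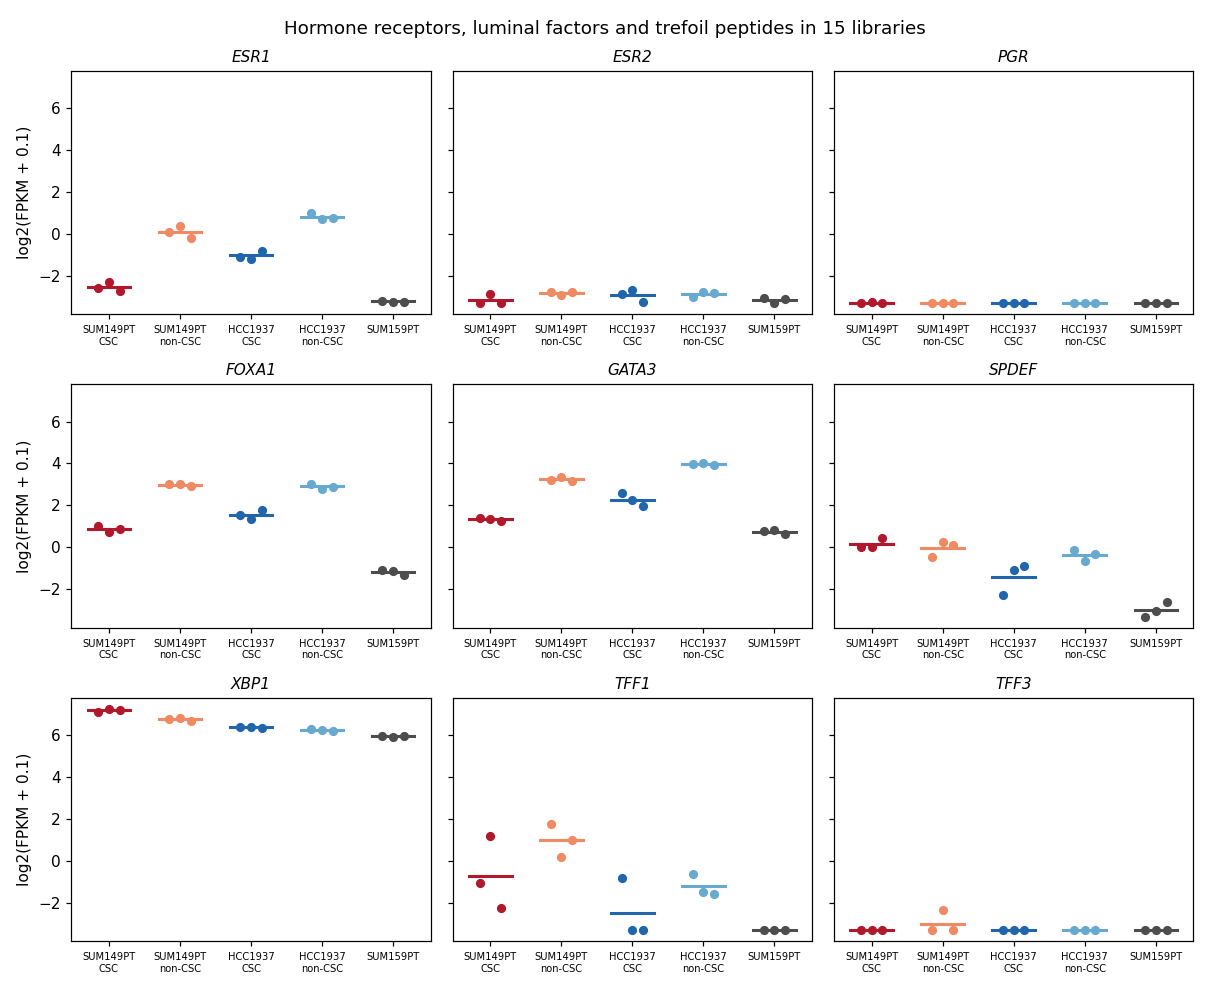
Level of each gene in the 15 libraries on the log2(FPKM + 0.1) scale, with 1 dot a library and a bar at the mean of each group of 3. XBP1 lies between 60.6 and 152 FPKM, GATA3 between 1.46 and 15.9, and PGR and TFF3 are each above 0 in 1 library only.

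ESR1, the classical estrogen receptor that defines hormone receptor positive tumors, was low in all lines but not equally so. Its FPKM values were 0.0688, 0.103 and 0.0506 in SUM149PT CSCs and 0.948, 1.19 and 0.774 in SUM149PT non-CSCs. In HCC1937 they were 0.37, 0.337 and 0.472 in CSCs and 1.86, 1.55 and 1.59 in non-CSCs. In SUM159PT they were 0.00998, 0.00544 and 0.00521. Every non-CSC library of either line was above every CSC library, SUM159PT was below all others, and no 2 groups overlapped. From the highest, the order was HCC1937 non-CSC, SUM149PT non-CSC, HCC1937 CSC, SUM149PT CSC and SUM159PT.

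The mean of ESR1 was 13.1 times higher in the non-CSC than in the CSC fraction of SUM149PT (0.97 ± 0.207 against 0.0743 ± 0.0269 FPKM; SD, n = 3) and 4.24 times higher in HCC1937 (1.66 ± 0.169 against 0.393 ± 0.0705). On the log2(FPKM + 0.1) scale used for the tests, which understates changes of genes near or under 0.1 FPKM, the CSC fraction fell by 2.61 in SUM149PT (SE 0.18, adjusted p = 5.7e-05) and by 1.85 in HCC1937 (SE 0.13, adjusted p = 0.00054). In bulk RNA, fewer cells that express a gene and less RNA per cell cannot be told apart, and the p-values measure only the spread between these libraries. Even the highest ESR1 mean stood below most expressed genes: 44.8% of the genes above 0 in HCC1937 non-CSCs were lower, and 20.3% of those in SUM149PT CSCs and 5.24% of those in SUM159PT.

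ESR2, the other estrogen receptor, did not reach 0.1 FPKM in any library. It was above 0 in 12 of 15 libraries, with a highest value of 0.0547 FPKM in HCC1937 CSCs. Its values were 0, 0.0349 and 0 in SUM149PT CSCs and 0.0205, 0 and 0.0161 in SUM159PT. The 5 groups overlapped each other in order of their means. No test was made for ESR2, because its mean stayed under the minimum of 0.1 FPKM in every comparison.

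PGR, a target of the estrogen receptor and the other hormone receptor scored in the clinic, was listed at 0 in 14 of 15 libraries. The exception was SUM149PT CSC replicate 2, at 0.00303 FPKM. The non-CSC fractions, where ESR1 was highest, were all at 0 for PGR, and PGR was not tested in any comparison.

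ERBB2, which completes the clinical triad, was the most abundant of the 3 transcripts in every group. Its means were 3.55 ± 0.218 FPKM in SUM149PT CSCs, 6.53 ± 0.447 in SUM149PT non-CSCs, 10.1 ± 0.324 in HCC1937 CSCs, 17.5 ± 0.991 in HCC1937 non-CSCs and 19.1 ± 1.46 in SUM159PT (SD, n = 3). SUM159PT is given as deposited, with its larger FPKM sums, so its place beside HCC1937 is not read. SUM149PT was lower than HCC1937 in both fractions, and the non-CSC mean was 1.84 times the CSC mean in SUM149PT and 1.73 times in HCC1937, without overlap. Neither difference passed the size limit of 1 for a call (log2 difference -0.86 and -0.78). The series holds no receptor positive or HER2 positive line against which these levels could be set.

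**Figure D2:**
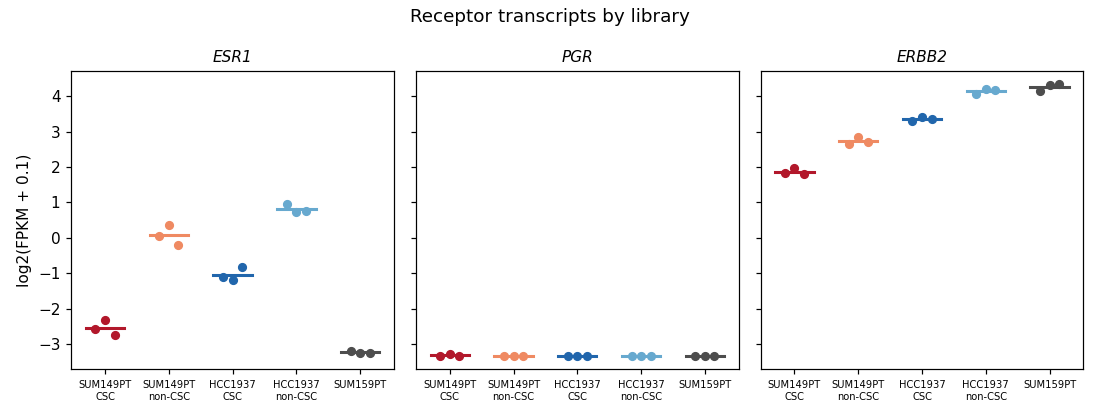
ESR1, PGR and ERBB2 on the log2(FPKM + 0.1) scale, with 1 dot a library and a bar at each group mean. Among the sorted groups ERBB2 means run from 3.55 FPKM in SUM149PT CSCs to 17.5 in HCC1937 non-CSCs, while ESR1 is highest in HCC1937 non-CSCs, at a mean of 1.66 FPKM.

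The wider receptor set moved both ways between fractions. Of 12 other receptors, 9 were tested in SUM149PT, where 3 were called higher and 1 lower in CSCs (12.8% and 22.1% of all tested genes were), with a median log2 difference of 0.73 against -0.11 for all tested genes. Those higher included NR3C2 (the mineralocorticoid receptor, 2.15) and NR3C1 (the glucocorticoid receptor, 1.62), and the one lower was ERBB3, a partner of HER2 (-3.70). In HCC1937, 2 of 9 were called higher (NR3C2 and PRLR) and 1 lower (ERBB3, -1.19), where 2.71% and 6.0% of all were, with a median of -0.08 against -0.03, but NR3C2 and PRLR lay at 0.311 FPKM or less in all 6 libraries and lost their calls at a pseudocount of 1 and with an eBayes trend. NR3C2 also lost its call with no expression minimum and with the replicate block, and PRLR with the GC trend removed. The 10 coactivators and corepressors through which nuclear receptors act, among them NCOA3 and NCOR1, had 0 limma calls between the fractions of either line, with medians of -0.10 in SUM149PT and -0.12 in HCC1937.

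FOXA1, the pioneer factor that opens chromatin for the estrogen receptor, was expressed far above ESR1. Its values were 1.89, 1.55 and 1.7 FPKM in SUM149PT CSCs and 7.95, 7.99 and 7.52 in SUM149PT non-CSCs. In HCC1937 they were 2.76, 2.44 and 3.31 in CSCs and 7.99, 6.87 and 7.31 in non-CSCs. In SUM159PT they were 0.365, 0.354 and 0.294. The 2 non-CSC fractions overlapped at the top, followed without overlap by HCC1937 CSCs, SUM149PT CSCs and SUM159PT.

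The non-CSC mean of FOXA1 was 4.57 times the CSC mean in SUM149PT (7.82 ± 0.262 against 1.71 ± 0.172 FPKM; SD, n = 3) and 2.61 times in HCC1937 (7.39 ± 0.565 against 2.83 ± 0.439). The CSC fraction fell by 2.13 on the log2 scale in SUM149PT (SE 0.09, adjusted p = 8.5e-06) and by 1.36 in HCC1937 (SE 0.13, adjusted p = 0.0013). Among genes above 0, FOXA1 stood above 71.5% in SUM149PT non-CSCs and 67.8% in HCC1937 non-CSCs, near the middle in both CSC fractions (47.98% and 51.6%), and above 38.4% in SUM159PT.

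GATA3, which keeps luminal cells differentiated, was the most abundant of the lineage factors after XBP1. Its values were 2.55, 2.46 and 2.3 FPKM in SUM149PT CSCs and 9.11, 10.03 and 8.91 in SUM149PT non-CSCs. In HCC1937 they were 5.87, 4.71 and 3.81 in CSCs and 15.5, 15.9 and 15.1 in non-CSCs. In SUM159PT they were 1.6, 1.67 and 1.46. The groups took the same order as for ESR1, HCC1937 non-CSC first and SUM159PT last, with no overlap between neighbours.

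The non-CSC mean of GATA3 was 3.84 times the CSC mean in SUM149PT (9.35 ± 0.592 against 2.44 ± 0.122 FPKM; SD, n = 3) and 3.24 times in HCC1937 (15.5 ± 0.405 against 4.796 ± 1.03). The CSC fraction fell by 1.90 on the log2 scale in SUM149PT (SE 0.07, adjusted p = 7.6e-06) and by 1.70 in HCC1937 (SE 0.16, adjusted p = 0.0013). GATA3 was lower in the CSC fraction in each of the 3 libraries of both lines. It stood above 80.9% of the genes above 0 in HCC1937 non-CSCs and still above 57.9% in SUM159PT, more than in SUM149PT CSCs (52.5%), although its FPKM was lower there.

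ESR1, FOXA1 and GATA3 fell together in the CSC fractions, whereas XBP1 did not, so the bases before an annotated transcript start of each of these 4 genes are shown. The sequences are from RefSeq (GRCh38.p14), whose promoter table held 7 of the 9 genes and lacked TFF1 and TFF3. Each is written 5′ to 3′ on the strand of the gene, as the part of the 250 bases before the start that lies ahead of any exon of the gene in GENCODE release 29. These are chr14:37595349-37595499 on the minus strand for FOXA1, chr10:8054438-8054652 on the plus strand for GATA3, chr6:151806946-151807195 on the plus strand for ESR1 and chr22:28800598-28800819 on the minus strand for XBP1. For ESR1 and GATA3 this start lies inside the span of the gene, which reaches further upstream. Capitals mark every match, on either strand, to the motifs described after them.
FOXA1: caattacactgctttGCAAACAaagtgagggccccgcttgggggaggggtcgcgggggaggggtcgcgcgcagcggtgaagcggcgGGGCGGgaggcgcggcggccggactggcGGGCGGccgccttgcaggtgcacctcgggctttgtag
GATA3: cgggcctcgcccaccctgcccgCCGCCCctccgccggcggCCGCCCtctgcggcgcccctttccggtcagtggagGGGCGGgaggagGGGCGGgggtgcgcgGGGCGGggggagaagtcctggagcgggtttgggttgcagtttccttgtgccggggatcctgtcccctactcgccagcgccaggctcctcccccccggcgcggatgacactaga
ESR1: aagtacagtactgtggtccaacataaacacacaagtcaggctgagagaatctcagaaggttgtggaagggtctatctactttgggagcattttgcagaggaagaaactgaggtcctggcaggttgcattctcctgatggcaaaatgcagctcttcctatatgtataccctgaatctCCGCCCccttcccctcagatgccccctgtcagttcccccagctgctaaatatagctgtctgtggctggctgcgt
XBP1: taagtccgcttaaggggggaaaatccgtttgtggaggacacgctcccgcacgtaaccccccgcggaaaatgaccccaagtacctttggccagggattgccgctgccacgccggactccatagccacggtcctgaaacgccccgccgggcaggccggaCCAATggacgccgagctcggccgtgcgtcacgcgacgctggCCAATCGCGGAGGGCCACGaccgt
The motifs searched were the forkhead words TGTTTAC and TGTTTGC, the GATA words AGATAA and TGATAA, the estrogen response element GGTCANNNTGACC, the endoplasmic reticulum stress response element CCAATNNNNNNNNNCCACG, the GC box GGGCGG, the CCAAT box CCAAT and the TATA box TATAAA. The FOXA1 stretch holds the forkhead word TGTTTGC once, on the opposite strand, a word that 2.01% of 35116 promoter stretches of that length hold. It also has 2 GC boxes (26.0% of stretches hold at least 1), while the GATA3 stretch has 5 (38.3%) and the ESR1 stretch 1 (42.6%). The XBP1 stretch has the stress element once, with its last base 6 bases before the exon, which 0.0712% of stretches of that length share. XBP1 also has 2 CCAAT boxes (29.99% of stretches hold at least 1), and the one nearer to the exon is the first 5 bases of the stress element. The other words have no match in these stretches, and a match or its absence describes the letters only. The shares are over all promoter entries cut to the same length from their 5′ end, with no exons taken out.

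SPDEF, an ETS factor of luminal and secretory cells, did not follow FOXA1 and GATA3 in SUM149PT. Its values were 0.909, 0.922 and 1.27 FPKM in SUM149PT CSCs and 0.624, 1.07 and 0.978 in SUM149PT non-CSCs. In HCC1937 they were 0.105, 0.376 and 0.445 in CSCs and 0.813, 0.528 and 0.706 in non-CSCs. In SUM159PT they were 0, 0.0208 and 0.0637. The 2 SUM149PT fractions overlapped, as did SUM149PT and HCC1937 non-CSCs, while HCC1937 CSCs lay below all of these and SUM159PT lay lowest.

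In SUM149PT the SPDEF log2 difference was 0.21 (SE 0.22, adjusted p = 0.42), and without SUM149PT non-CSC replicate 1 it was -0.00213. It was 0.69 with quantile normalization (adjusted p = 0.037) and 0.72 with the GC trend removed (adjusted p = 0.024), both under the size limit for a call. In HCC1937 the non-CSC mean was 2.21 times the CSC mean, but the log2 difference of -1.04 did not pass the test (SE 0.40, adjusted p = 0.12), although 1 fit over all 15 libraries called it (adjusted p = 0.034; 0.034 to 0.36 over the alternatives). The lowest CSC library, replicate 1 at 0.105 FPKM, set much of that spread, and without it the difference was -0.60.

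XBP1, which drives the secretory machinery and the unfolded protein response and is also a known estrogen target, was by far the most abundant of the 9 genes. Its values were 136, 152 and 146 FPKM in SUM149PT CSCs and 110.1, 111 and 103 in SUM149PT non-CSCs. In HCC1937 they were 83.7, 82.3 and 80.9 in CSCs and 77.4, 76.6 and 72.04 in non-CSCs. In SUM159PT they were 62.03, 60.6 and 61.9. The groups did not overlap, and the CSC fraction was the higher in both sorted lines, the reverse of ESR1, FOXA1 and GATA3.

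The size of this difference was small. The CSC mean of XBP1 was 1.34 times the non-CSC mean in SUM149PT (145 ± 8.29 against 108 ± 4.59 FPKM; SD, n = 3; log2 difference 0.42, SE 0.07, adjusted p = 0.0023) and 1.09 times in HCC1937 (82.3 ± 1.38 against 75.4 ± 2.89; log2 difference 0.13, SE 0.06, adjusted p = 0.21), so neither was called. XBP1 stood above 98.5% of the genes above 0 in SUM149PT CSCs and above 94.2% in SUM159PT, the lowest of its 5 groups.

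Of 10 target genes of the spliced XBP1 protein, all 10 were tested and 0 were called by limma between the fractions of either line. Of all tested genes, 12.8% were called higher and 22.1% lower in SUM149PT CSCs, and 2.71% and 6.0% in HCC1937 CSCs. With so few calls in HCC1937, 0 of 10 says little there. The median log2 difference of the 10 targets was 0.43 in SUM149PT and 0.37 in HCC1937, against -0.11 and -0.03 for all tested genes. The chaperone HSPA5, for example, averaged 569 FPKM in the CSC fraction of SUM149PT and 451 in the other, a log2 difference of 0.33 (adjusted p = 0.0028), and 856 against 656 in HCC1937 (0.38, adjusted p = 0.012). HSPA5 was picked as the example after its values were seen, and not all targets moved like it. PDIA4 was lower in SUM149PT CSCs (67.3 against 76.1 FPKM) and higher in HCC1937 CSCs (84.3 against 65.5), without overlap. For SDF2L1 and SEC61B the fractions overlapped in both lines.

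TFF1, the classical secreted estrogen target, was spread widely among replicates. Its values were 0.385, 2.14 and 0.109 FPKM in SUM149PT CSCs and 3.29, 1.05 and 1.87 in SUM149PT non-CSCs. In HCC1937 they were 0.461, 0 and 0 in CSCs and 0.547, 0.26 and 0.234 in non-CSCs. All 3 SUM159PT libraries were listed at 0. Within each sorted line the fractions overlapped, and SUM149PT non-CSCs lay above HCC1937 non-CSCs without overlap.

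The log2 difference of TFF1 was -1.69 in SUM149PT (SE 0.93, adjusted p = 0.15) and -1.27 in HCC1937 (SE 0.74, adjusted p = 0.28), and neither passed. In both lines 1 CSC library decided this: without SUM149PT CSC replicate 2 the difference was -2.63 (adjusted p = 0.014), past the limits for a call. Without HCC1937 CSC replicate 1 the gene was called lower too (adjusted p = 0.015), but both CSC libraries left are at 0, so the size rests on the pseudocount and is not given. The other fits without 1 library gave differences as small as -0.92 in SUM149PT and -0.85 in HCC1937, and TFF1 was not called in them. TFF3, the other trefoil peptide linked to luminal tumors, was listed at 0 in 14 of 15 libraries and at 0.0946 FPKM in SUM149PT non-CSC replicate 2. TFF3 was not tested.

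Other estrogen response genes moved both ways. In SUM149PT, 12 of 15 were tested, 3 were called higher and 3 lower in CSCs, where 12.8% and 22.1% of all tested genes were, and their median was -0.05 against -0.11 for all tested genes. Those lower included AGR2 (-3.83) and RERG (-3.22), and those higher were CXCL12 (2.17), IGFBP4 (1.95) and CA12 (1.47). The calls of CXCL12 (0.71) and of NAT1, the remaining lower gene (-0.43), were lost at a pseudocount of 1, and that of NAT1 also with quantile normalization (-0.77) and with no expression minimum (adjusted p = 0.112). In HCC1937, 2 of 9 tested were higher (CA12 and IGFBP4, 1.47 and 1.29) and 1 was lower (AGR2, -2.82), where 2.71% and 6.0% of all were, with a median of -0.18 against -0.03. Among these targets AGR2 thus fell beside ESR1 in both CSC fractions, while IGFBP4 and CA12 rose in both.

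In the comparison of SUM149PT CSCs with non-CSCs, 6 of the 9 genes were tested, and 3 of 6 were called lower and 0 higher, where 22.1% of all 16037 tested genes were called lower and 12.8% higher. A call needed an adjusted p of at most 0.05 and a log2 difference of at least 1 in size. The median of the 6 was -1.79, against -0.11 for all tested genes. ESR1, FOXA1 and GATA3 were the 3 called. Quantile normalization moved the median of all genes to 0.09 and the share of calls that were higher from 36.5% to 49.96%, and relative to that median ESR1 lay between -3.16 and -2.23 over 4 scalings, FOXA1 between -2.06 and -2.01 and GATA3 between -1.82 and -1.78.

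In HCC1937 the same 3 of 6 tested genes were called lower and 0 higher, where 6.0% of 15582 genes were called lower and 2.71% higher. At the stricter adjusted p limit of 0.0001, 0 genes were called by limma in HCC1937, so these 3 calls were lost. The median of the 6 was -1.31, against -0.03 for all tested genes. TPM scaling moved the median of all genes to 0.09 and the share of higher calls from 31.1% to 42.2%. Relative to the median, ESR1 lay between -1.97 and -1.79, FOXA1 between -1.35 and -1.33 and GATA3 between -1.67 and -1.66. The calls of ESR1 were lost at a pseudocount of 1, above its level in all but 4 of the 15 libraries (-0.87 in SUM149PT and -0.94 in HCC1937).

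**Figure D3:**
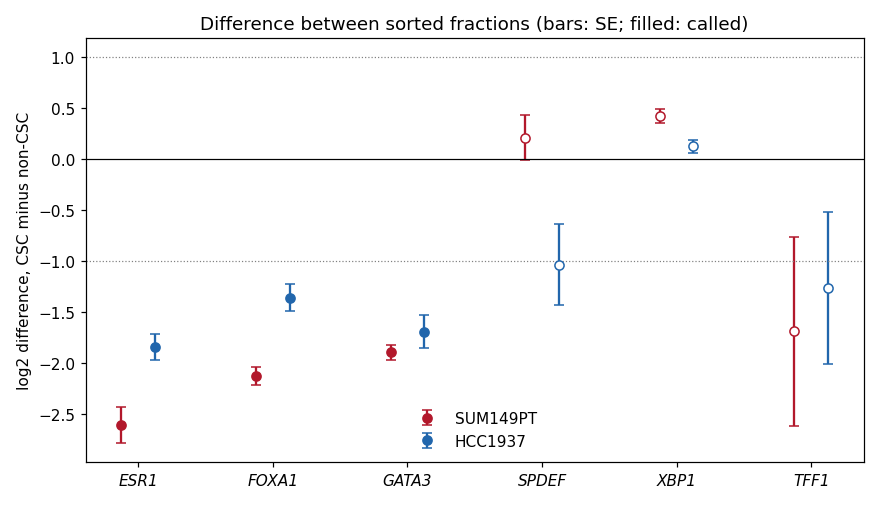
Log2 difference of FPKM + 0.1, CSC minus non-CSC, with bars of 1 SE, for the 6 genes tested in each line, where filled points were called. ESR1, FOXA1 and GATA3 lie between -2.61 and -1.36, while XBP1 is at 0.42 and 0.13 and SPDEF at 0.21 in SUM149PT and -1.04 in HCC1937.

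The CSC effect was then compared between the lines, as the effect in SUM149PT minus that in HCC1937. Of the 6 genes tested, 1 was called higher and 0 lower, where 12.2% and 18.2% of 16451 genes were, and their median was -0.31 against -0.08. FOXA1 fell further in SUM149PT than in HCC1937 (-0.77, SE 0.16, adjusted p = 0.0019), under the size limit. ESR1 had the same difference (-0.77, SE 0.23, adjusted p = 0.016), but it depended on the low end of the scale: with a pseudocount of 1 it was 0.07, with 0.01 it was -1.501, and with quantile normalization its adjusted p was 0.12, in a range of 0.0039 to 0.62 over the alternatives. For GATA3 the difference was -0.20 (SE 0.18, adjusted p = 0.37), with 0.04 to 0.77 as the range of adjusted p when 1 library was left out.

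The 1 call was SPDEF, at 1.25 (SE 0.49, adjusted p = 0.048), and it was fragile. It was lost in 8 of 12 fits that left out 1 library: SUM149PT CSC replicate 1 (1.32), 2 (1.31) or 3 (1.10), SUM149PT non-CSC replicate 1 (1.04) or 3 (1.32), HCC1937 CSC replicate 1 (0.81) and HCC1937 non-CSC replicate 1 (1.13) or 3 (1.22), with adjusted p from 0.054 to 0.109 over these 8. Upper quartile and TPM scaling (adjusted p = 0.054 and 0.097, in a range of 0.016 to 0.126 over all alternatives) and both other pseudocounts also left it uncalled. XBP1 differed by 0.29 (SE 0.09, adjusted p = 0.015), and by 0.21 with TPM scaling (adjusted p = 0.075, the highest of a range of 0.0036 to 0.075 over the alternatives). TFF1 gave -0.43 (SE 1.28, adjusted p = 0.79), and its direction turned with TPM scaling (0.20) or without SUM149PT CSC replicate 3 (0.35) or HCC1937 CSC replicate 1 (0.40, with both HCC1937 CSC libraries left at 0).

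Between the CSC fractions, HCC1937 had more ESR1 and less SPDEF than SUM149PT. Of the 6 genes tested, 1 was called higher and 1 lower in HCC1937, where 26.1% and 17.7% of 15952 genes were, and their median was -0.06 against 0.24. The ESR1 mean was 5.29 times higher in HCC1937 CSCs (log2 difference 1.502, SE 0.15, adjusted p = 0.00026) and the SPDEF mean 3.35 times higher in SUM149PT CSCs (-1.58, SE 0.39, adjusted p = 0.012). GATA3 was 1.97 times higher in HCC1937 CSCs (0.93, SE 0.16, adjusted p = 0.0026), under the limit with all libraries and past it at 1.08 without HCC1937 CSC replicate 3. FOXA1 was at 0.69 (SE 0.13, adjusted p = 0.0042), XBP1 at -0.81 (SE 0.07, adjusted p = 1e-04) and TFF1 at -1.78 (SE 1.10, adjusted p = 0.19). Leaving out 1 library moved the TFF1 difference to between -2.61, with the HCC1937 CSC libraries left all at 0, and -0.84. TFF1 was not called in any of these fits.

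Upper quartile scaling moved the median of all genes in that comparison from 0.24 to 0.02 and the share of higher calls from 59.6% to 49.4%. Relative to the median, ESR1 lay between 1.26 and 1.79 over the 4 scalings, GATA3 between 0.68 and 0.70 and XBP1 between -1.07 and -0.98. XBP1 was called lower with that scaling (-1.05). At a pseudocount of 1 neither ESR1 (0.37) nor SPDEF (-0.64) was called, and with no expression minimum the adjusted p of SPDEF was 0.058.

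Between the non-CSC fractions, HCC1937 had less TFF1 than SUM149PT. Of the 6 genes tested, 0 were called higher by limma and 1 lower in HCC1937, where 22% and 20.7% of 16433 genes were, and the unadjusted limma p of 12905 genes was 0.05 or less. The call was TFF1, whose mean was 5.96 times higher in SUM149PT (-2.21, SE 0.46, adjusted p = 0.0053). FOXA1 differed by -0.08 (SE 0.08, adjusted p = 0.37), while ESR1 and GATA3 were 1.72 and 1.66 times higher in HCC1937 (0.74 and 0.73, adjusted p = 0.0063 and 0.0002). FOXA1 was at -0.32 with upper quartile scaling (adjusted p = 0.00996) and at -0.25 with TPM scaling (adjusted p = 0.069). Relative to the median of all genes FOXA1 lay between -0.24 and -0.18 over the scalings. XBP1 was at -0.52 (SE 0.07, adjusted p = 0.00068) and SPDEF at -0.33 (SE 0.23, adjusted p = 0.23). The median of the 6 was -0.21, against 0.10 for all tested genes, which upper quartile scaling moved to -0.12, with 41.2% of calls higher in place of 51.5%.

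As deposited, SUM159PT had the lowest mean of each of the 6 genes that were tested. Against SUM149PT CSCs, 5 of the 9 genes were tested, and 4 of 5 were called lower and 0 higher, where 45.6% of 14976 genes were called lower and 21.3% higher. Against HCC1937 CSCs, 4 of 5 were again lower and 0 higher, where 48.3% of 15515 genes were lower and 18.5% higher. The medians were -2.05 against -0.76 for all tested genes, and -1.58 against -0.97. Since so many genes are lower in SUM159PT as deposited, each gene is also read against the median.

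FOXA1 was lower in SUM159PT than in the CSC fraction of SUM149PT (-2.05, SE 0.11, adjusted p = 3.9e-06) and of HCC1937 (-2.74, SE 0.14, adjusted p = 2.9e-06). Relative to the median of all genes it stayed lower over the 4 scalings, at -1.37 to -0.55 and -1.87 to -0.98, though with quantile normalization the first difference was -0.54 and not called. SPDEF was lower by the same measure (-3.16 against SUM149PT CSCs, SE 0.21, adjusted p = 1.4e-05; -1.58 against HCC1937 CSCs, SE 0.40, adjusted p = 0.0089), and at -2.82 to -2.24 and -0.87 to -0.62 relative to the median. The SPDEF call against HCC1937 CSCs was lost with quantile normalization (-0.80), with no expression minimum (adjusted p = 0.060) and at a pseudocount of 1 (-0.34), at which the one against SUM149PT CSCs was lost too (-0.98).

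ESR1 was lower than in HCC1937 CSCs (-2.20, SE 0.12, adjusted p = 4.4e-06) and lay at -1.61 to -1.23 relative to the median. Its call was lost with the GC trend removed (-0.70) and at a pseudocount of 1 (-0.47), and against SUM149PT CSCs it was too low to test.

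For GATA3 and XBP1, the 2 genes with a mean above 1 FPKM in SUM159PT, the difference from the CSC fractions depended on the treatment of the values. GATA3 was at -0.60 against SUM149PT CSCs (SE 0.08, adjusted p = 0.0005), but relative to the median it lay at 0.15 to 0.88, and with quantile normalization the difference itself turned to 0.88. With TPM scaling it was called lower (-1.68), and with the GC trend removed it was at -0.87, or -0.85 relative to the median. Against HCC1937 CSCs GATA3 was at -1.53 (SE 0.17, adjusted p = 0.00014) and below 0 under every setting, at -1.57 with the GC trend removed, but relative to the median it lay at -0.58 to 0.04 over the 4 scalings, and the call was lost with upper quartile scaling (-0.999) and quantile normalization (-0.01). XBP1 was at -1.23 (SE 0.07, adjusted p = 6.8e-06) and -0.42 (SE 0.08, adjusted p = 0.0018), and both turned positive with the GC trend removed (1.22 and 2.22), as the second did with upper quartile scaling (0.13), which also took the first below the limit for a call (-0.92). With TPM scaling both were called lower (-2.32 and -1.42). Relative to the median XBP1 lay at -1.89 to -0.43 against SUM149PT CSCs over the 4 scalings, and at -0.78 to 0.62 against HCC1937 CSCs, above the median as deposited (0.55). The XBP1 transcript has 41.5% GC and that of SPDEF 64.6%, around a median of 48.8% for expressed genes, and the removal of the GC trend was chosen after seeing the data.

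TFF1 was called lower in SUM159PT than in SUM149PT CSCs (adjusted p = 0.023), and since all 3 SUM159PT libraries are listed at 0 no fold is given. That call was lost without SUM159PT replicate 1, 2 or 3 (adjusted p = 0.0597, 0.0597 and 0.0603), at a pseudocount of 1 (0.067) and with no expression minimum (0.116). Over the scalings and the removal of the GC trend, the share of all calls that were higher in SUM159PT was 31.8% against SUM149PT CSCs and ranged from 12.1% with TPM scaling to 50.4% with the GC trend removed, and the median from -1.83 with TPM scaling to 0.003 with quantile normalization. Against HCC1937 CSCs the share was 27.6% and ranged from 13.03% to 50.4% over the same settings, and the median from -1.96 with TPM scaling to -0.01 with the GC trend removed.

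**Figure D4:**
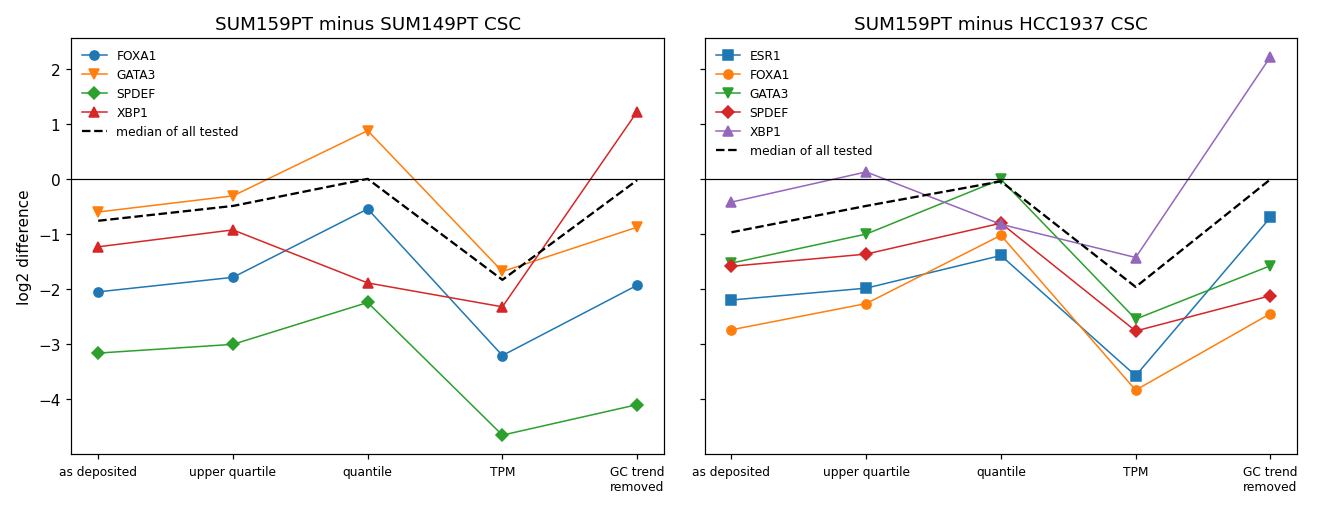
Log2 difference of SUM159PT minus SUM149PT CSCs (left) and minus HCC1937 CSCs (right) under 5 treatments of the values, with the median of all tested genes as a dashed line. FOXA1 and SPDEF stay below the dashed line throughout, while XBP1 moves from -1.23 to 1.22 (left) and from -0.42 to 2.22 (right) when the GC trend is removed.

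Many luminal genes beyond the 9, though not all, were lower in the CSC fractions, as ESR1, FOXA1 and GATA3 were. Of 20 luminal lineage genes, 15 were tested in SUM149PT and 11 were called lower and 0 higher, where 22.1% and 12.8% of all tested genes were, with a median of -2.50 against -0.11 for all. KRT19 (-4.75), CDH1 (-4.52) and EPCAM (-4.44) fell most beside CD24, which the sort itself selected (-4.15), and KRT8 and KRT18 fell by 2.35 and 2.39 on the log2 scale. In HCC1937, 9 of 16 tested were lower and 0 higher, where 6.0% and 2.71% of all were, with a median of -1.40 against -0.03, among them ELF3, CDH1 and KRT19. At a pseudocount of 1 the lower calls of STAT5A in SUM149PT (-0.90) and of ELF5 in HCC1937 (-0.77) were lost. The fractions overlapped in both lines for EHF, at 19.1 against 20.1 FPKM in SUM149PT and 32.7 against 29.03 in HCC1937. Their summed level was 505 to 538 FPKM in SUM149PT CSCs and 2676 to 2743 in non-CSCs, and 942 to 1094 in HCC1937 CSCs and 2309 to 2663 in non-CSCs.

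What remained of that program differed by line. KRT19 averaged 1127 FPKM in the non-CSC and 41.9 in the CSC fraction of SUM149PT, but 4.7 and 0.883 in HCC1937. In SUM159PT, 8 of 20 luminal genes had a mean of at least 1 FPKM, against 13 to 15 in the sorted groups. Of all genes, 8534 to 8670 exceeded 1 FPKM in its libraries, against 11249 to 11997 in the sorted ones. KRT7, chosen after its values were seen, made up most of the luminal sum in SUM159PT, at 979.9 FPKM. CDH1 and EHF were at 0.0681 and 0.101 FPKM there, where FOXA1 was at 0.338. Against SUM149PT CSCs, 9 of 15 luminal genes were lower and 5 higher in SUM159PT (median -1.93 against -0.76), where 45.6% and 21.3% of all tested genes were. Against HCC1937 CSCs 9 of 15 were lower and 1 higher (-1.53 against -0.97), where 48.3% and 18.5% of all were. These counts depend on the scaling: with TPM the higher calls of KRT8 (0.77), KRT18 (0.81) and KRT7 (0.60) against SUM149PT CSCs were lost, that of KRT7 also with quantile normalization (0.52) and the GC trend removed (0.79), and the 1 higher call against HCC1937 CSCs, KRT7, was lost with TPM (0.17) and with the GC trend removed (0.69) and turned with quantile normalization (-0.29). With quantile normalization the lower calls of TBC1D9 against SUM149PT CSCs (-0.48) and of MUC1 and TFAP2C against HCC1937 CSCs (-0.19 and -0.13) were lost as well, 3 genes named because their calls changed. TBC1D9 also lost its call with the GC trend removed (-0.49), MUC1 with upper quartile scaling (-0.995), and TFAP2C with both (-0.94 and -0.85).

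Basal genes, which mark the outer epithelial layer, did not rise as a set where the luminal factors fell. In SUM149PT CSCs, 5 of 11 tested were lower and 1 higher (median -0.79 against -0.11), where 22.1% and 12.8% of all genes were. In HCC1937 CSCs 6 of 12 were lower and 0 higher (-1.04 against -0.03), where 6.0% and 2.71% were. KRT5 fell by 4.62 on the log2 scale in SUM149PT CSCs and by 1.33 in HCC1937 CSCs. TP63, the 1 higher gene and named after its values were seen, averaged 11.5 against 2.37 FPKM in SUM149PT. In HCC1937 TP63 went the other way, at 3.22 FPKM in CSCs against 5.71 in non-CSCs, without overlap. Most mesenchymal genes moved the other way from FOXA1 and GATA3: 7 of 10 were higher and 1 lower in SUM149PT CSCs (median 2.01; 12.8% and 22.1% of all genes) and 7 of 10 higher and 0 lower in HCC1937 CSCs (1.40; 2.71% and 6.0%). The 1 lower call, TWIST1, was lost with every other scaling, with the GC trend removed and at a pseudocount of 1. VIM led them in both, at 3.11 and 2.57.

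**Figure D5:**
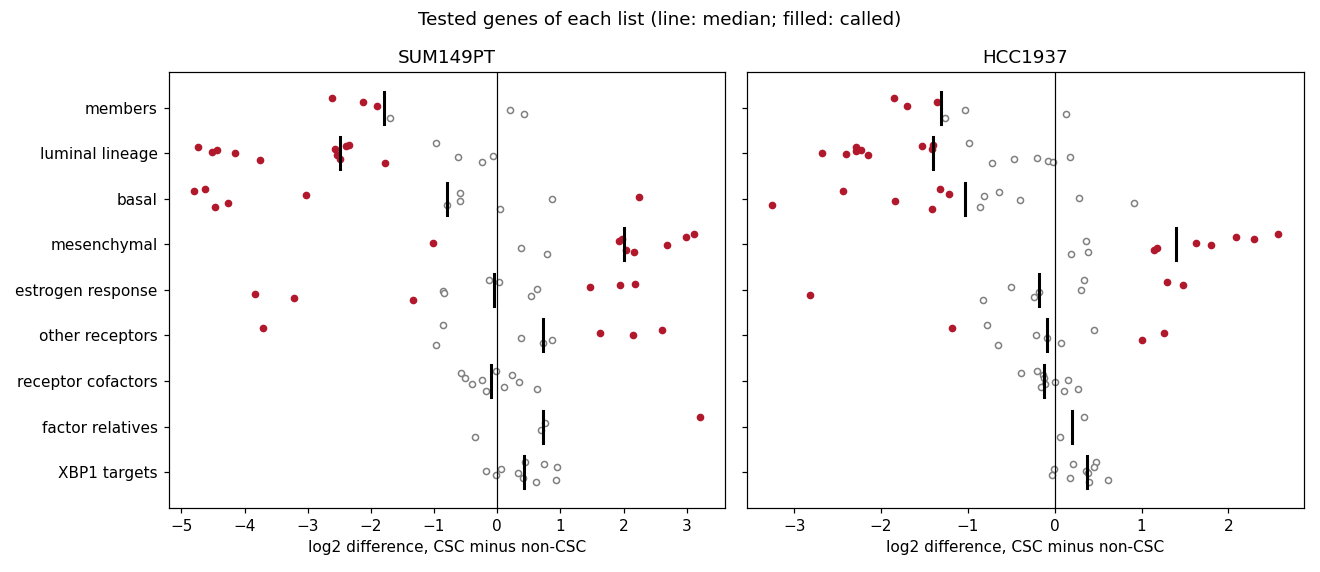
Log2 difference, CSC minus non-CSC, of each tested gene of 9 lists in SUM149PT (left) and HCC1937 (right), where filled dots were called and a bar marks the median of the list. The luminal lineage list has medians of -2.50 and -1.40, the mesenchymal list 2.01 and 1.40.

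Among close relatives of the 9 genes, FOXA2 stood out in SUM149PT. FOXA2, which shares its DNA-binding domain type with FOXA1, was 6.22, 5.74 and 6.2 FPKM in SUM149PT CSCs and 0.44, 0.564 and 0.725 in non-CSCs, the opposite of FOXA1 (log2 difference 3.21, adjusted p = 1.7e-05). In HCC1937 it was above 0 only in non-CSC replicate 2, at 0.0368 FPKM, and in SUM159PT it had a mean of 1.44. GATA2 and GATA6, chosen here after their values were seen, were expressed in all 5 groups beside GATA3, at means of 10.9 to 18.4 and 2.86 to 31.8 FPKM. FOXA3 and TFF2, named after their values were seen, had lower means in SUM149PT CSCs than in non-CSCs (0.026 against 0.124 FPKM, and 0.944 against 1.17). FOXA3 was too low to test and TFF2 was not called. Of 8 relatives, 4 were tested in SUM149PT with 1 higher and 0 lower (median 0.73; 12.8% and 22.1% of all genes), and 2 in HCC1937 with 0 called by limma (median 0.20; 2.71% and 6.0%), too few to set against those shares.

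Over all 15 libraries, the genes whose level was most like that of each tested gene were found by Pearson's r of log2(FPKM + 0.1), as a description in which the libraries of a group are not independent. For FOXA1 these included GALNT3 (r = 0.996), the sorting marker CD24 (0.996), MPZL3 (0.995) and ST14 (0.994), and over the 12 sorted libraries alone CD24 had r = 0.992. For ESR1 they were IGSF9 (0.990), CCDC64B (0.990), PIP4K2C (0.989), PADI1 (0.989) and MUC16 (0.989). For GATA3 they were TRAF4 (0.992), CCDC64B (0.988), PADI1 (0.985), GID8 (0.982) and GRAMD2 (0.980), so that CCDC64B and PADI1 stood near both ESR1 and GATA3. XBP1 was most like P4HA2 (0.995), KCMF1 (0.994), POFUT2 (0.994), PTPN21 (0.991) and KLF10 (0.990).

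SPDEF and TFF1 had looser matches. For SPDEF they were PAK6 (0.954), LNX2 (0.953), RNF144B (0.949), TAB3 (0.949) and OPTN (0.948), and over the 12 sorted libraries PAK6 had r = 0.864, so part of that likeness rests on SUM159PT. For TFF1 they were JUNB (0.889), TMEM243 (0.888), BAG3 (0.885), TUBG2 (0.876) and RHBDF1 (0.876), and JUNB had r = 0.843 over the sorted libraries.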

How the data were processed

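The authors deposited FPKM values for 15 mRNA libraries. The submitters' processing notes name Bowtie2 and GRCh38; the quantification tool and annotation are not given in the sources used here, and depth is unknown. Each of 7 comparisons was fitted with limma 3.58.1 (lmFit and eBayes, R 4.3.3) on log2(FPKM + 0.1), over genes averaging 0.1 FPKM or more across the fitted libraries, with Benjamini-Hochberg adjustment over all genes tested. Calls needed an adjusted p ≤ 0.05 together with a log2 difference of 1 or more in size. The fit was tested on simulated data. Levels, sequences and figures were made with Python 3.11.15, pandas 2.3.3, numpy 2.4.6 and matplotlib 3.10.9, and GC content came from GENCODE release 29, which covered 92.0% of the 12164 genes averaging 1 FPKM or more and 9 of 9 members.

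The lists were other receptors, receptor cofactors, estrogen response, luminal lineage, factor relatives, XBP1 targets, basal, mesenchymal and other cell types. The members and lists were chosen with earlier results of these data known. From each list up to 4 called genes with the largest difference were named, plus ERBB2, CD24, CD44, EPCAM, KRT8, KRT18, VIM and KRT5, and for each member genes among the 5 with the highest r. The settings varied were scaling (upper quartile, quantile, TPM), pseudocount and expression minimum, an eBayes trend, 1 fit over 15 libraries, a replicate block, stricter limits, each library left out and, chosen after seeing the data, removal of the GC trend.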

Additional observations from a re-analysis of the deposited data

Results flagged for a closer look

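The CSC effect of 4 genes differed between SUM149PT and HCC1937 by the interaction test at an adjusted p of at most 0.05. Each value is the effect in SUM149PT minus that in HCC1937 on the log2 scale. ESR1 was at -0.77 (adjusted p = 0.016) and FOXA1 at -0.77 (adjusted p = 0.0019), and the CSC fraction was lower in both lines. The value of ESR1 turned to 0.066 at a pseudocount of 1 and had an adjusted p of 0.12 with quantile normalization. SPDEF was at 1.25 (adjusted p = 0.048), with overlapping fractions in SUM149PT and a lower CSC mean in HCC1937; its call was lost in 8 of 12 fits without 1 library and with the replicate block (adjusted p = 0.080). XBP1 was at 0.29 (adjusted p = 0.015), and at 0.21 with TPM scaling (adjusted p = 0.075).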

How the results depend on the processing

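Of 740 values of the 6 tested genes under other settings, 677 kept their direction and side of the limits, 44 lost a call, 9 gained one and 10 turned. The cause was not tested where none is named. With a pseudocount of 1, ESR1 in the comparison of CSC effects turned to 0.066. In the same comparison TFF1 turned to 1.20 with a pseudocount of 0.01 and to 0.20 with TPM scaling. SUM159PT against SUM149PT CSCs gave 0.88 for GATA3 with quantile normalization and 1.22 for XBP1 with the GC trend removed. SUM159PT against HCC1937 CSCs gave 0.13 for XBP1 with upper quartile scaling and 2.22 with the GC trend removed. SPDEF lost 23 of the 44 calls. Each group holds 3 libraries.

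Leaving out 1 library gave -0.00213 to 0.34 for SPDEF in SUM149PT and -1.36 to 0.40 for TFF1 in the comparison of CSC effects. It gave 5473 to 5593 called genes for SUM149PT (5596 with all libraries), 1170 to 1359 for HCC1937 (1357), 4863 to 5043 for the comparison of CSC effects (5004), 6851 to 7047 between CSC fractions (6994), 6911 to 7020 between non-CSC fractions (7021), 9858 to 10043 for SUM159PT against SUM149PT CSCs (10015) and 10296 to 10390 against HCC1937 CSCs (10362).

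A pseudocount of 1 left 3109 called genes in SUM149PT, 626 in HCC1937, 2872 in the comparison of CSC effects, 4287 between CSC fractions and 4269 between non-CSC fractions, since it shrinks differences of low genes. A minimum of 1 FPKM left 3623 in SUM149PT and 872 in HCC1937, with fewer genes tested. An adjusted p limit of 0.0001 left 3292, 2922, 4378 and 4508 in SUM149PT, the comparison of CSC effects, the CSC fractions and the non-CSC fractions, and 0 in HCC1937 by limma, where the unadjusted limma p of 5886 genes was 0.05 or less.

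The labels do not say whether the replicate numbers pair the libraries. Same-numbered SUM149PT libraries deviated together with r of 0.0223 to 0.143, against -0.199 to 0.0651 for different numbers. In HCC1937 r was -0.130 to -0.028 for the same number and -0.0852 to 0.127 for different numbers. With the replicate number as a block, 5584 genes were called in SUM149PT, 1268 in HCC1937, 4944 in the comparison of CSC effects, 6954 and 6991 between lines, and 10028 and 10422 for SUM159PT. SPDEF in the comparison of CSC effects (1.25, adjusted p = 0.080) was the only call among the 6 tested genes that the block changed.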
